A study of Mus musculus with 9 samples.

Results

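The troponin isoform genes are the 8 mouse genes Tnnc1, Tnnc2, Tnni1, Tnni2, Tnni3, Tnnt1, Tnnt2 and Tnnt3. They were taken by name from a table of 52780 genes, through the gene symbols of the GENCODE M21 annotation, and the rule that picks them uses no measured value. All 8 passed the filter on low counts, as did 19545 genes in all.

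Gene expression was measured by mRNA-seq in C2C12 cells, a line of mouse myoblasts that fuses into multinucleated myotubes when serum is lowered. Myotubes were collected at day 4 of differentiation, with 3 samples each of control (si Ctrl), macroH2A1.1 knockdown (si mH2A1.1) and macroH2A1.2 knockdown (si mH2A1.2). MacroH2A1.1 and macroH2A1.2 are the splice isoforms of macroH2A1, a histone variant encoded by H2afy, and the question was how myotubes differ once either isoform is lowered. The siRNA was used at 10 nM and delivered repeatedly, before and during differentiation. The controls are wild type in the labels and si Ctrl in the study. All samples come from the same cell line, the siRNA behind each knockdown sample is not given in the sources used here, and the labels do not say whether the replicates are separate cultures, although the study calls them independent biological replicates. If they are not, the p-values measure only the spread between these samples.

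Striated muscle contracts when calcium binds troponin, a complex of 3 subunits that sits on the thin filament with actin and tropomyosin. Troponin C binds the calcium, troponin I holds back the interaction of actin with myosin, and troponin T anchors the complex to tropomyosin. Each subunit has isoforms from separate genes. Tnnc2, Tnni2 and Tnnt3 belong to fast skeletal fibres, Tnni1 and Tnnt1 to slow skeletal fibres, Tnnc1 to slow fibres and the heart, and Tnni3 and Tnnt2 to the heart. Tnnt2 is also expressed in embryonic skeletal muscle and in myotubes in culture.

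The targeted gene was examined first. H2afy was at 56.3, 62.4 and 61.0 CPM (counts scaled to the library size by TMM normalization) in the si Ctrl samples, at 38.8, 30.0 and 30.9 with si mH2A1.1, and at 46.8, 47.2 and 43.2 with si mH2A1.2. The 3 conditions did not overlap. The counts of H2afy sum both isoforms, so these values do not tell which isoform was lowered. At the protein level, the study reports from immunoblots of C2C12 cells that each knockdown was specific to its isoform. H2afy fell 1.80-fold with si mH2A1.1 (log2 fold change -0.85, SE 0.11, edgeR adjusted p = 0.00331), while the 1.31-fold lower mean with si mH2A1.2 did not pass (-0.39, SE 0.11, adjusted p = 0.108).

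The troponin genes lie at 5 places in the mouse genome (GRCm38, GENCODE M21). Tnnc1 is on chr14:31208312-31211729 (plus strand) and Tnnc2 on chr2:164777161-164779967 (minus strand). The 6 genes of troponin I and T form 3 pairs, each of a troponin I and a troponin T gene on the same strand. Tnni1 (chr1:135779434-135810989) and Tnnt2 (chr1:135836354-135852260) are 25.4 kb apart with Lad1 between them. Tnni2 (chr7:142441808-142444410) and Tnnt3 (chr7:142498836-142516009) are 54.4 kb apart with Lsp1 between them. Tnni3 (chr7:4518305-4524229) and Tnnt1 (chr7:4504570-4516382), on the minus strand, are 1.9 kb apart with no gene between them.

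The pairs are not all of the same fibre type: fast Tnni2 is next to fast Tnnt3, but slow Tnni1 is next to cardiac Tnnt2 and cardiac Tnni3 is next to slow Tnnt1. RefSeq promoter windows (GRCm38.p6, 250 bases before to 50 after the start site) were found for 6 of the 8 genes. The windows of the 4 genes among them that differed between the knockdowns, Tnnc2 (chr2:164779685-164779984, minus strand), Tnni3 (chr7:4522479-4522778, minus strand), Tnnt1 (chr7:4515926-4516225, minus strand) and the more upstream window of Tnnt2 (chr1:135836084-135836383, plus strand), are shown beside that of Tnnc1 (chr14:31208062-31208361, plus strand), which did not pass the test in any contrast. Each reads 5′ to 3′ on the gene's strand, and the capitals mark E-boxes (CANNTG, the site bound by myogenic regulatory factors such as MyoD), MCAT elements (CATTCC, the site of TEAD factors) and TATA boxes (TATAAA), each searched on both strands.
Tnnc1: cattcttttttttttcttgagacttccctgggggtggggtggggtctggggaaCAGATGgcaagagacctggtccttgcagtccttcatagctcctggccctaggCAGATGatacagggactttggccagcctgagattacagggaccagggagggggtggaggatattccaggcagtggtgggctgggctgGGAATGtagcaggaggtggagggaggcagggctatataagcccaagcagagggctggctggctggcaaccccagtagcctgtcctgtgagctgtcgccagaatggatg
Tnnc2: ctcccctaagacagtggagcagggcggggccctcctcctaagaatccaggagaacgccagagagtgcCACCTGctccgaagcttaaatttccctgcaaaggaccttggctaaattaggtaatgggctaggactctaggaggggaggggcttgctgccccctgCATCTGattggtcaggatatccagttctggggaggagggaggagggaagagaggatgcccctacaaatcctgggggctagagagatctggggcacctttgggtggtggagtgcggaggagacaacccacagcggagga
Tnni3: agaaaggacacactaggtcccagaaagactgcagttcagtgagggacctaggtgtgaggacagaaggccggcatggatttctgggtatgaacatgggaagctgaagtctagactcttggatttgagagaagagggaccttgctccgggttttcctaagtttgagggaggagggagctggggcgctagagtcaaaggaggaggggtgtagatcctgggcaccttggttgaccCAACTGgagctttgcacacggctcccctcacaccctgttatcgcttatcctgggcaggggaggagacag
Tnnt1: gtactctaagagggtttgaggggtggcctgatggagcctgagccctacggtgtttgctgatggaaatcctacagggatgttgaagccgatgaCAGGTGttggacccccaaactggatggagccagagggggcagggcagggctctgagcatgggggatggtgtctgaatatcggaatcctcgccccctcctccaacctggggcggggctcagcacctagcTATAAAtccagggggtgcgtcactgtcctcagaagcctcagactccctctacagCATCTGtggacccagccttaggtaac
Tnnt2: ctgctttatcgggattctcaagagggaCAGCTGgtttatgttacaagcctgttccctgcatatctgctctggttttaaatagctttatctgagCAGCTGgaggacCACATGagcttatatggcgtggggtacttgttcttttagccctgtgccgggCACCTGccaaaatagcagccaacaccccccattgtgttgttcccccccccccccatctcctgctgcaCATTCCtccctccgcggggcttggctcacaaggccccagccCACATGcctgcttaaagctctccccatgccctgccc
Every one of the 6 genes had at least 1 E-box in its window, as did 72.3% of all 32851 promoter windows of the same length. The more upstream Tnnt2 window held 5 E-boxes, a number that 2.10% of all windows reached or passed. The other Tnnt2 window (chr1:135836739-135837038) held 2, a number that 39.6% of all windows reached or passed, and no MCAT element. The Tnni3 window held 1 E-box, at 19 bases before the start site. MCAT elements lay 58 bases before the start site of Tnnc1 and 27 bases before that of Tnnt2, and 14.7% of all windows held one. A TATA box lay 30 bases before the start site of Tnnt1, and 13.6% of all windows held one. The MEF2 motif (in 3.19% of all windows) and the CArG box (in 1.63%) were not found in the windows of these 6 genes. These matches describe the letters of the windows and were not tested as binding sites.

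In si Ctrl myotubes 7 of the 8 genes were strongly expressed and Tnni3 was near the lower limit of the data. Per kilobase of summed exon length, Tnnc1 had the highest mean level (884 ± 152 CPM per kb, SD, n = 3), followed by Tnnt3 (676 ± 120), Tnnc2 (596 ± 166), Tnni2 (387 ± 81.9), Tnni1 (233 ± 77.7), Tnnt2 (174 ± 54.0) and Tnnt1 (149 ± 28.1). The ranges of neighbours in this order of 7 overlapped between samples. Within samples, in 5 of the 6 neighbouring pairs the first gene was higher in all 3 controls, and the exception was Tnnt2 and Tnnt1, with 2 of 3. Tnni3 was at 1.18 ± 0.426 CPM per kb, far below the other genes and without overlap. The order depends on the length used. Tnnt2 has 7752 bp of summed exons but a longest coding transcript of 1200 bp, and per kilobase of that transcript it was second (1125 ± 349) after Tnnc1 (1276 ± 220). Fast, slow and cardiac troponin transcripts were therefore all present in the control myotubes.

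The labelled cell type was checked against its markers. Myotube markers (Myog, Ckm, Myh3, Myh8, Des, Mymk and Ttn) were each above 3 counts, and their summed level ranged from 13971 to 21867 CPM in si Ctrl, from 13513 to 16906 with si mH2A1.1 and from 11822 to 15567 with si mH2A1.2. Of 9 cardiac markers, Nppa, Mybpc3 and Myl7 were at 3 counts or fewer in each si Ctrl sample, with Myl7 at 0 in all 3, and Nppb, Nkx2-5, Tbx5 and Ryr2 had means of at most 1.02 CPM. Myh6 and Gata4, in contrast, were at 29.2 to 60.2 and 29.2 to 36.6 CPM in si Ctrl. Myh6, the main myosin heavy chain of the adult mouse heart, fell with si mH2A1.1 (log2 fold change -1.60, edgeR adjusted p = 0.0327), and Gata4, a cardiac transcription factor, fell with si mH2A1.2 (-0.85, adjusted p = 0.0216). Each was the only edgeR call in its contrast among the 6 cardiac markers tested. Of all 19545 genes, this test called 11.1% after macroH2A1.1 knockdown and 2.35% after macroH2A1.2 knockdown. Whether any marker list exceeded these shares was not tested. Genes used as markers of other cell types moved with the conditions, in samples that all come from the C2C12 line. The study itself names Col1a1 among the most expressed genes of C2C12 myotubes. The summed level of 7 fibroblast markers was 10112 to 13119 CPM in si Ctrl, 3690 to 6592 with si mH2A1.1 and 16592 to 23203 under si mH2A1.2. Col1a1 and Col3a1 made up most of this sum. With si mH2A1.2, 4 of the 6 tested had a log2 fold change above 0 and 2 below. The 2 were Lum, at 10.0 to 12.1 CPM against 12.7 to 19.1 in si Ctrl, and Thy1, at a mean of 0.509 against 0.511. Of the 6 tested, Col1a1, Col3a1 and Lum fell with si mH2A1.1 while Dcn (342 CPM against 329 in si Ctrl), Pdgfra (13.6 against 12.6) and Thy1 did not pass, and none passed with si mH2A1.2 in the edgeR test (Col1a1 passed with the replicate block, adjusted p = 0.0426, and in DESeq2). The summed level of 7 markers of undifferentiated or dividing myoblasts was 260 to 400, 371 to 675 and 219 to 306 CPM in the same order, with Id1 and Id3 running opposite to the other 5 between the knockdowns. None of these 7 passed with si mH2A1.1 in the edgeR test. The replicate block, which called 4065 of all 19545 tested genes, called Pax7, Mki67, Top2a and Ccnb1 higher there (adjusted p = 0.0314, 0.00815, 0.0246 and 0.0304). The summed level of 4 smooth muscle markers, mostly Acta2, was 1555 to 2672, 1604 to 1959 and 2397 to 3227 CPM in the same order. Tagln fell with si mH2A1.1 (log2 fold change -1.32, edgeR adjusted p = 0.0354). Cnn1 (2.22, adjusted p = 0.0247) and Tagln (1.54, adjusted p = 0.046) rose with si mH2A1.2, while Acta2 and Myh11 did not pass in either. The part of these shifts in the troponin results below was not tested, and in bulk RNA fewer cells of a type and less RNA per cell cannot be told apart.

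**Figure D1:**
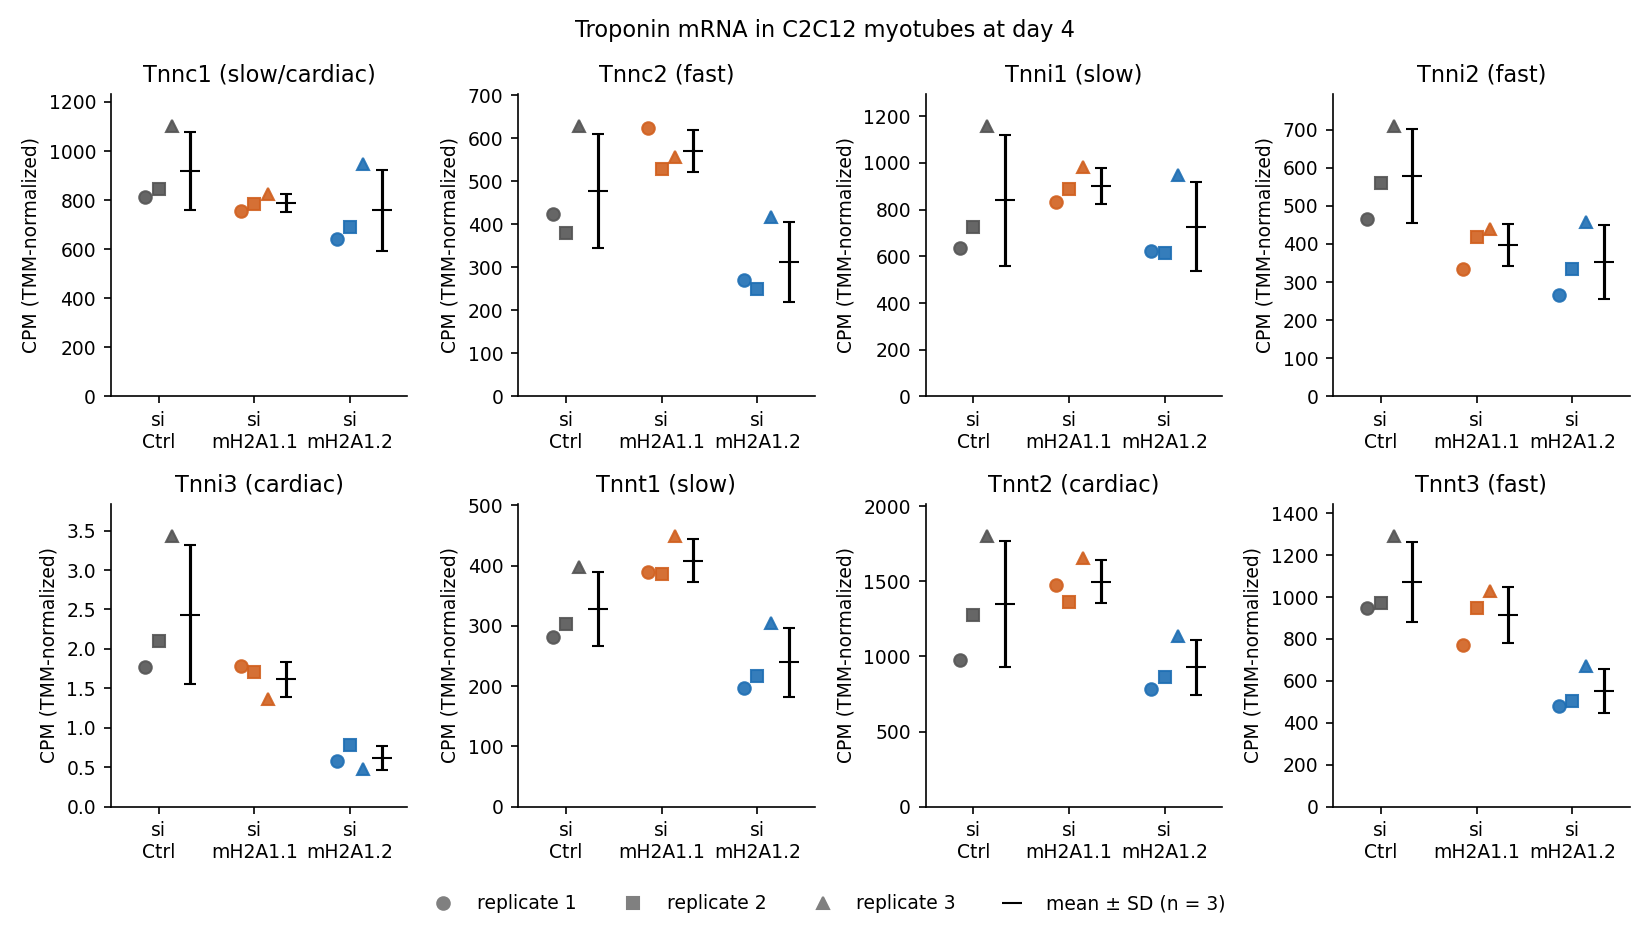
Level of the 8 troponin genes in each of the 9 samples, in CPM after TMM normalization (vertical axis from 0, a scale of its own per gene), with the mean and SD (n = 3) at the right of each condition. The si mH2A1.2 samples of Tnni3 and Tnnt3 all lie below every si Ctrl and si mH2A1.1 sample, and si Ctrl replicate 3 is the highest control for all 8 genes.

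The control samples varied together. In si Ctrl replicate 3, all 8 genes were at their highest of the 3 controls, and 7 of the 8 were at their lowest in si Ctrl replicate 1. The same replicate number was also the highest for 7 of the 8 genes with si mH2A1.2 and for 6 of the 8 with si mH2A1.1. Over all genes, same-numbered samples of si Ctrl and si mH2A1.2 paired most strongly. For this contrast values from a fit with the replicate number as a block are therefore also given. For the troponin genes and the gene lists, block calls are given for si mH2A1.1 too where they differ.

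With si mH2A1.2, Tnni3 and Tnnt3 fell and the mean of every other troponin gene was below si Ctrl without passing the test. Tnnt3, the fast troponin T, was at 949, 973 and 1290 CPM in si Ctrl and at 479, 504 and 672 CPM with si mH2A1.2. The highest knockdown sample was below the lowest control. The change was 1.94-fold (log2 fold change -0.96, SE 0.18, edgeR adjusted p = 0.028, and 0.00541 with the replicate block). The call of Tnnt3 was lost, with a log2 fold change between -1.04 and -0.81, without si Ctrl replicate 1 (adjusted p = 0.0676), si Ctrl replicate 3 (0.0823), si mH2A1.2 replicate 1 (0.0876) or si mH2A1.2 replicate 2 (0.106).

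Tnni3, the cardiac troponin I, was at 66, 79 and 133 counts (1.77, 2.11 and 3.43 CPM) in si Ctrl and at 21, 30 and 18 counts (0.578, 0.783 and 0.483 CPM) with si mH2A1.2. The conditions did not overlap, and the fall was 3.94-fold (log2 fold change -1.98, SE 0.31, adjusted p = 0.0161, and 0.0158 with the replicate block). Without si mH2A1.2 replicate 1 the adjusted p was 0.0586 at a log2 fold change of -1.94. Tnni3 overlaps Dnaaf3, a gene for the assembly of dynein arms of cilia, on the same strand, where they share 86 bp or 4.17% of the Tnni3 exons. Dnaaf3 ends 405 bp upstream of the RefSeq start of Tnni3 printed above and changed alongside it, from 3.21, 3.28 and 2.60 CPM in si Ctrl to 1.32, 0.887 and 0.376 CPM (log2 fold change -1.81, SE 0.36, adjusted p = 0.0322). Whether some of the few Tnni3 reads stem from Dnaaf3 transcripts was not tested.

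The 2 troponin genes called lower compare with 2.35% of all tested genes called in this contrast, 0.982% of them lower. All 8 were lower with si mH2A1.2 in each of the 3 pairs of samples with the same replicate number, as were 25.6% of all tested genes, and 3 (Tnni2, Tnni3 and Tnnt3) were lower without overlap between the groups, as were 10.8%. The median log2 fold change of the 8 genes was -0.58, beside a median close to 0 for all genes. With the replicate block 4 of the 8 were lower, since Tnni2 (-0.73, adjusted p = 0.0102) and Tnnt1 (-0.46, adjusted p = 0.0361) were added to Tnni3 and Tnnt3. Over all genes the block moved the calls from 460 to 1005.

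Tnni2, the fast troponin I, was at 466, 560 and 710 CPM in si Ctrl and at 266, 336 and 457 CPM with si mH2A1.2. All 3 knockdown samples were below the lowest control, although the adjusted p without the block was 0.124 (log2 fold change -0.71, SE 0.21) and DESeq2 gave 0.0232. Tnnt1, the slow troponin T, was at 282, 304 and 398 CPM in si Ctrl and at 197, 217 and 305 CPM with si mH2A1.2, where si mH2A1.2 replicate 3 overlapped the controls (-0.45, SE 0.18, adjusted p = 0.249). The other 4 had overlapping groups and did not pass with or without the block. Their log2 fold changes were -0.61 for Tnnc2 (95% interval -1.11 to -0.11), -0.54 for Tnnt2 (-1.03 to -0.06), -0.28 for Tnnc1 (-0.65 to 0.10) and -0.21 for Tnni1 (-0.73 to 0.32).

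With si mH2A1.1 none of the 8 troponin genes passed the test against the same si Ctrl samples (edgeR adjusted p of 0.05 or less), while 11.1% of all tested genes did. The count of 0 was the same with DESeq2 and limma-voom, and 1 gene, Tnni2, had an unadjusted p below 0.05. It was not the same with the replicate block, which called Tnni2 lower (log2 fold change -0.53, adjusted p = 0.0102) and Tnnt1 higher (0.33, adjusted p = 0.0467). Over all genes the block moved the calls of this contrast from 2171 to 4065. Tnni2 was at 335, 418 and 438 CPM with si mH2A1.1, below its 466, 560 and 710 CPM in si Ctrl without overlap, with a log2 fold change of -0.54 (SE 0.21, adjusted p = 0.117). This mean was 1.46-fold lower. The other genes moved less or unevenly. Tnni3 had a log2 fold change of -0.59 (SE 0.28, adjusted p = 0.194), with 72, 69 and 59 counts against 66, 79 and 133 in si Ctrl. Tnnt1 was at 390, 386 and 449 CPM, higher than si Ctrl in 3 of 3 same-numbered samples but overlapping it (0.32, SE 0.18, adjusted p = 0.272).

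Among the remaining 5, the log2 fold changes with si mH2A1.1 were 0.26 for Tnnc2 (95% interval -0.24 to 0.76), 0.15 for Tnnt2 (-0.33 to 0.64), 0.10 for Tnni1 (-0.42 to 0.63), -0.22 for Tnnc1 (-0.60 to 0.15) and -0.23 for Tnnt3 (-0.62 to 0.17). The 8 genes thus had 4 means above and 4 below the control, with a median of -0.06. Both knockdowns were set against the same 3 control samples, so the 2 sets of values are not independent.

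**Figure D2:**
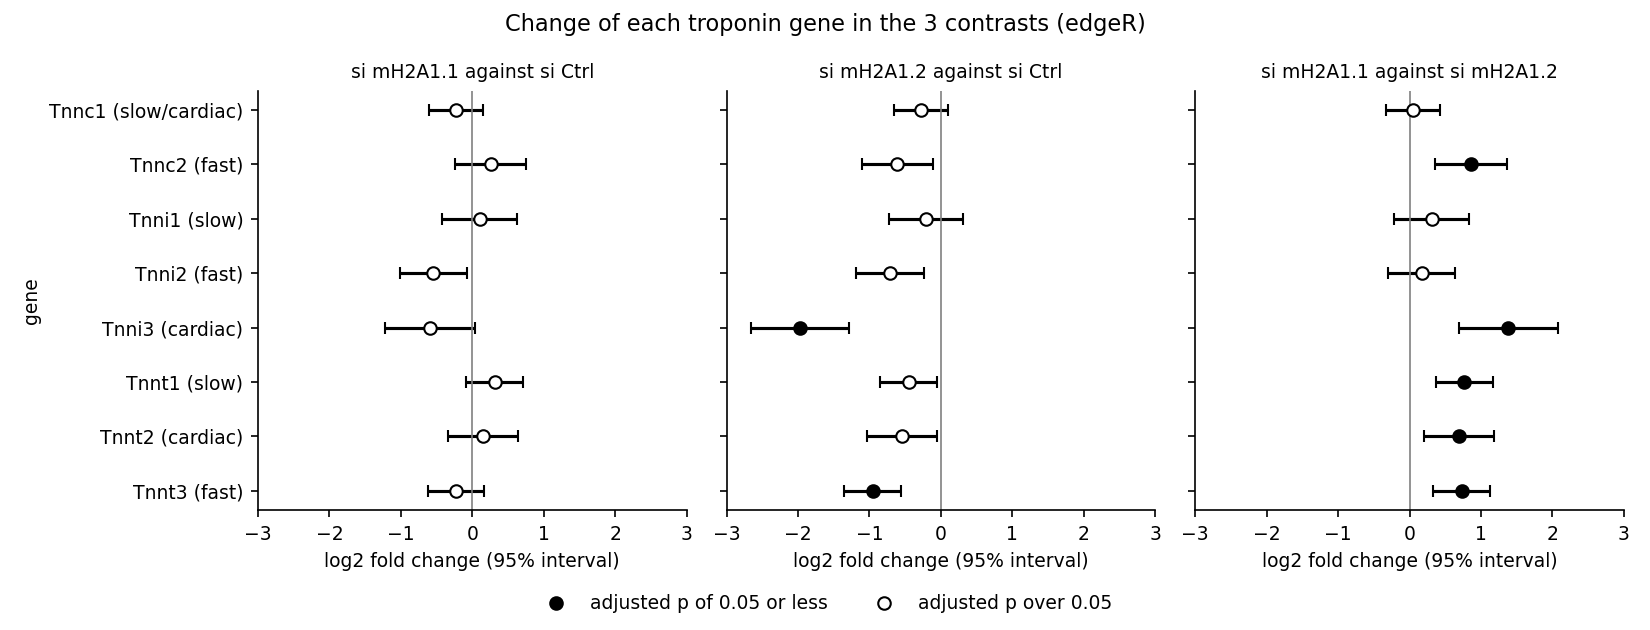
Log2 fold change (horizontal axis) of each troponin gene in the 3 contrasts, with 95% intervals from the edgeR fit over all 9 samples, as filled points where the adjusted p was 0.05 or less. No point is filled for si mH2A1.1 against si Ctrl, 2 are filled below 0 for si mH2A1.2 against si Ctrl, and 5 are filled above 0 between the knockdowns.

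The direct comparison of the knockdowns does not use the control samples except for the estimate of the spread. In it, 5 of the 8 troponin genes were higher with si mH2A1.1 than with si mH2A1.2 and none was lower, where 22.5% of all tested genes were called and 12.0% were called higher. These 5, Tnnc2, Tnni3, Tnnt1, Tnnt2 and Tnnt3, hold fast, slow and cardiac isoforms, and in none of them did the groups overlap. Of all tested genes, 20.3% were higher with si mH2A1.1 without overlap. Of the 8, 6 were higher in all 3 same-numbered pairs, against 29.0% of all genes, and the exceptions were Tnnc1 and Tnni2 with 2 of 3. The median log2 difference of the 8 was 0.71.

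All 3 troponin T genes were in this group. Tnnt1 was at 390, 386 and 449 CPM with si mH2A1.1 and at 197, 217 and 305 CPM with si mH2A1.2, a 1.70-fold difference (log2 0.77, SE 0.18, edgeR adjusted p = 0.0145). Tnnt2, the cardiac and embryonic form, was at 1475, 1366 and 1654 CPM with si mH2A1.1 and at 785, 862 and 1135 CPM with si mH2A1.2, a 1.62-fold difference (log2 0.69, SE 0.22, adjusted p = 0.0461). Tnnt3 was at 770, 947 and 1028 CPM with si mH2A1.1, also above each si mH2A1.2 sample (1.66-fold, log2 0.73, SE 0.18, adjusted p = 0.0169). Each call depended on single samples. Tnnt1 and Tnnt3 were not called without si mH2A1.1 replicate 3 (adjusted p = 0.0534 and 0.0633) or si mH2A1.2 replicate 2 (0.0606 and 0.0702). Tnnt2 was not called in 6 of the 9 fits that left out a sample, those without si Ctrl replicate 2 (0.0632), si mH2A1.1 replicate 1 (0.103), 2 (0.0552) or 3 (0.131), and si mH2A1.2 replicate 1 (0.109) or 2 (0.139).

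Troponin I and C each gave 1 call. Tnni3, with 72, 69 and 59 counts against 21, 30 and 18, was 2.61-fold higher with si mH2A1.1 (log2 1.39, SE 0.31, adjusted p = 0.0117), and this call was kept whichever sample was left out. Dnaaf3 moved with it here too (log2 1.53, SE 0.36, adjusted p = 0.0135). Tnni1 and Tnni2 did not pass (log2 0.31, 95% interval -0.21 to 0.83, and 0.17, -0.30 to 0.64).

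Tnnc2, the fast troponin C, was at 624, 528 and 557 CPM with si mH2A1.1 and at 270, 250 and 418 CPM with si mH2A1.2, a 1.82-fold difference without overlap (log2 0.87, SE 0.23, adjusted p = 0.0219). The si Ctrl samples (423, 379 and 628 CPM) lay between and overlapped both. Its call was lost without si mH2A1.1 replicate 1 (adjusted p = 0.0745) or 3 (0.0547), or si mH2A1.2 replicate 1 (0.0559) or 2 (0.0851). Tnnc1 did not differ detectably (log2 0.05, 95% interval -0.32 to 0.43). With stricter cutoffs (adjusted p under 0.01, and log2 fold change 0.8 or more in size), none of the 8 genes was called in any contrast. Of all genes, 1.80% were then called for si mH2A1.1, 0.179% for si mH2A1.2 and 6.38% between the knockdowns.

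The level of Tnnc2 is uncertain in its counting. Of its 800 bp of exons, 592 bp (74%) overlap exons of Ube2c on the opposite strand, a ubiquitin-conjugating enzyme of mitosis, and whether the counting used strand is not given in the sources used here. Without strand, reads of the shared part cannot be told apart. Ube2c was at 25.2 to 40.4 CPM in si Ctrl, 35.1 to 67.3 with si mH2A1.1 and 14.6 to 22.7 under si mH2A1.2, so the order of its means was that of Tnnc2, and it was higher with si mH2A1.1 than with si mH2A1.2 (log2 1.37, SE 0.27, adjusted p = 0.00666). In every sample the CPM of Ube2c was far below that of Tnnc2, whose lowest value was 250. The Ube2c counts come from the same assignment of shared reads, so this gap does not bound the Ube2c reads counted for Tnnc2. The other troponin genes share next to no sequence with each other: at most 6 stretches of 31 bases of any gene occurred in another troponin gene.

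The isoform shares were then compared, as the ratio of the counts of the slow or cardiac gene to those of the fast gene in the same sample. Such a ratio needs neither library size nor gene length to be compared between samples. An exact permutation test over the 9 samples asked whether each ratio differed among the 3 conditions (1680 splits, smallest possible p 0.00357). The share of other gene pairs that would pass this test was not measured. All 4 ratios passed after adjustment over the 4, and they took 2 different patterns. None passed when samples were permuted only within a replicate number (the replicate block, adjusted exact p of 0.0556 for Tnnc1 to Tnnc2 and Tnni1 to Tnni2 and 0.111 for both troponin T ratios), a test that cannot go below an unadjusted p of 0.0278.

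For troponin C the knockdowns lay on either side of the control. The log2 ratio of Tnnc1 to Tnnc2 was 0.94, 1.16 and 0.81 in si Ctrl, 0.28, 0.57 and 0.57 with si mH2A1.1, and 1.25, 1.47 and 1.18 with si mH2A1.2. No pair of conditions overlapped, with fast Tnnc2 at its largest part with si mH2A1.1 and slow Tnnc1 at its largest part with si mH2A1.2. The exact permutation p was 0.00357, the smallest possible, and 0.0143 adjusted. The mean ratio was 0.708 times that of si Ctrl in the macroH2A1.1 knockdown and 1.26 times in the macroH2A1.2 knockdown. The limit on counting Tnnc2 reads given above holds for this ratio.

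For troponin I both knockdowns lay on the slow side of the control. The log2 ratio of Tnni1 to Tnni2 was 0.45, 0.37 and 0.71 in si Ctrl, 1.31, 1.09 and 1.17 with si mH2A1.1, and 1.22, 0.87 and 1.05 with si mH2A1.2. All 6 knockdown samples were above all 3 controls, and the knockdowns overlapped each other. The ratio differed among conditions (exact permutation p = 0.0143, adjusted 0.0286), at 1.60 times the control with si mH2A1.1 and 1.45 times with si mH2A1.2.

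For troponin T the arrangement was that of troponin I. The log2 ratio of slow Tnnt1 to fast Tnnt3 was -1.75, -1.68 and -1.70 in si Ctrl, against -0.98, -1.29 and -1.20 with si mH2A1.1 and -1.28, -1.22 and -1.14 with si mH2A1.2. Again all knockdown samples were above all controls (exact permutation p = 0.025, adjusted 0.0321), at 1.47 and 1.41 times the control. The log2 ratio of cardiac Tnnt2 to Tnnt3 was 0.04, 0.39 and 0.48 in si Ctrl, 0.94, 0.53 and 0.69 with si mH2A1.1, and 0.71, 0.77 and 0.76 with si mH2A1.2 (exact permutation p = 0.0321, adjusted 0.0321). These 2 ratios share Tnnt3. The ratio of Tnnt2 to Tnnt3 no longer passed without si Ctrl replicate 1 (adjusted p = 0.0964), si Ctrl replicate 2 (0.0643), si mH2A1.1 replicate 3 (0.075) or si mH2A1.2 replicate 1 (0.0643), 2 (0.0893) or 3 (0.0786), in exact permutation tests.

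**Figure D3:**
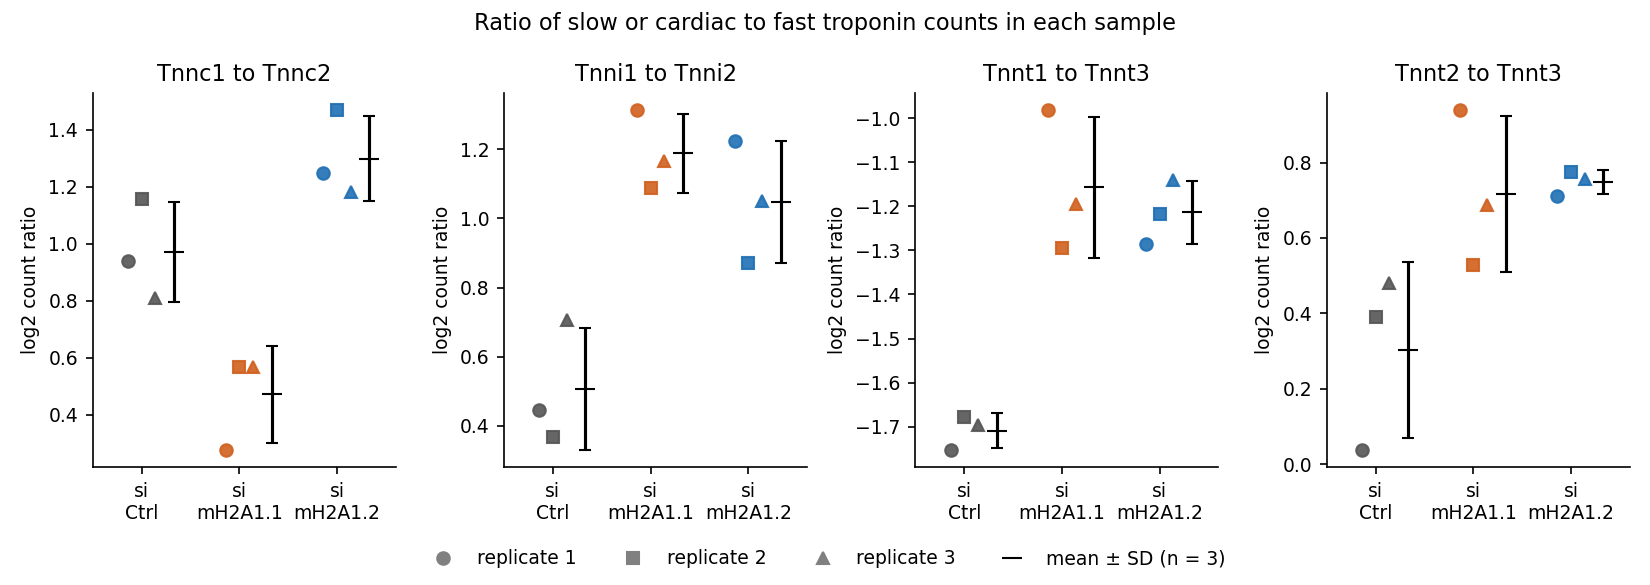
Log2 ratio of counts (vertical axis) of the slow or cardiac gene to the fast gene of the same troponin subunit in each sample, with mean and SD (n = 3). For Tnnc1 to Tnnc2 the si mH2A1.1 samples lie below and the si mH2A1.2 samples above si Ctrl, and for the other 3 ratios all 6 knockdown samples lie above the 3 controls.

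The means behind these ratios are given for troponin I and T. With si mH2A1.1, the mean of Tnni1 was 901 CPM (839 in si Ctrl) and that of Tnni2 was 397 CPM (579), and of these only Tnni2 had no overlap between the groups. With si mH2A1.2 both were lower, Tnni1 at 727 and Tnni2 at 353 CPM. Likewise Tnnt1 was at 408 CPM with si mH2A1.1 (328 in si Ctrl) and at 239 CPM with si mH2A1.2, beside Tnnt3 at 915 and 552 CPM (1071 in si Ctrl). Between the knockdowns, the levels of all 3 troponin T genes differed and those of Tnni1 and Tnni2 did not pass the test. The summed CPM of the 8 genes was 4544 to 7091 in si Ctrl, 5183 to 5936 with si mH2A1.1 and 3258 to 4882 under si mH2A1.2.

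As shares per summed exon length, Tnnc1 made up 60.1 ± 2.90% of troponin C in si Ctrl (SD, n = 3), 51.6 ± 2.93% with si mH2A1.1 and 65.4 ± 2.33% under si mH2A1.2. Tnni1 made up 37.1 ± 2.87% of troponin I in si Ctrl, 48.6 ± 1.96% with si mH2A1.1 and 46.2 ± 3.05% under si mH2A1.2. Tnni3 was at most 0.208% of troponin I in any sample. Of troponin T, Tnnt1 made up 14.9 ± 0.170% in si Ctrl, 19.4 ± 1.17% with si mH2A1.1 and 18.7 ± 0.710% under si mH2A1.2. The share of Tnnt2 was 17.2 ± 2.19%, 20.3 ± 1.89% and 20.7 ± 0.278% in the same order, and that of Tnnt3 was 67.9 ± 2.11%, 60.3 ± 3.05% and 60.5 ± 0.783%.

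The leading troponin T gene depends on the length that counts are divided by. Per length of the longest coding transcript, Tnnt2 made up 45.8 ± 3.87% of troponin T in si Ctrl, 50.3 ± 2.71% with si mH2A1.1 and 51.2 ± 0.416% under si mH2A1.2, ahead of Tnnt3 at 41.3 ± 3.21%, 34.1 ± 3.02% and 33.9 ± 0.588%. By that length Tnni1 and Tnni2 were within their SD of each other in si Ctrl (48.6 ± 3.05% and 51.2 ± 3.07% of troponin I), and Tnni1 was ahead with si mH2A1.1 (60.3 ± 1.87% and 39.6 ± 1.89%). The ratios of counts above do not depend on this choice.

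**Figure D4:**
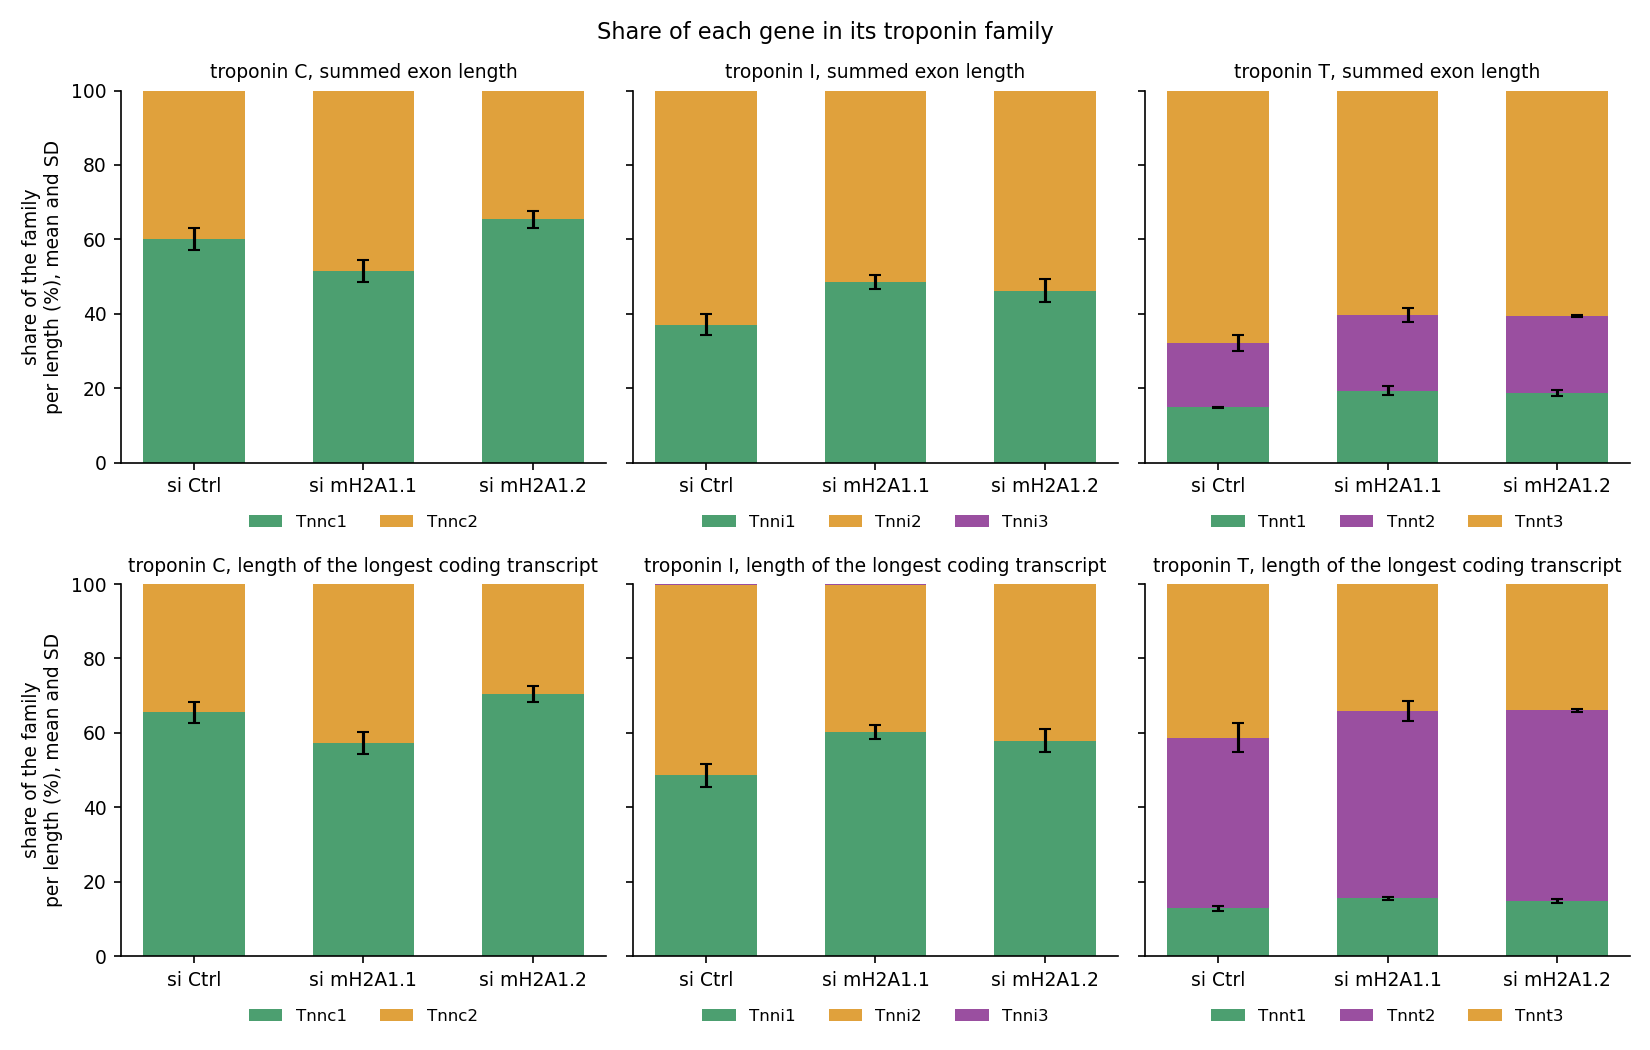
Mean share (vertical axis, percent) of each gene in the troponin C, I and T mRNA of each condition, per summed exon length (upper row) and per length of the longest coding transcript (lower row). Each bar on a boundary is the SD (n = 3) of the share of the segment under it, and Tnni3, at about 0.2% or less, is hardly visible. The boundary of Tnnc1 is lowest with si mH2A1.1, and those of Tnni1 and Tnnt1 are higher with both knockdowns than with si Ctrl.

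Other genes of the contractile apparatus give the context. Of 12 partners of troponin on the thin filament (actins, tropomyosins, nebulins and the tropomodulins and leiomodins that cap or seed filaments), 1 rose with si mH2A1.1, Tmod1 (log2 fold change 0.73, adjusted p = 0.0195), in a contrast that called 11.1% of all genes. With si mH2A1.2, where 0.982% of all genes were called lower, 1 fell, Lmod2 (-0.86, adjusted p = 0.0297), and 3 fell with the replicate block. With si mH2A1.1 the block called 4 of the 12 higher and 1 lower. The median log2 fold change of the 12 was -0.01 for the macroH2A1.1 knockdown and -0.47 for that of macroH2A1.2. Between the knockdowns, 6 of the 12 were higher under si mH2A1.1 and none was lower, where 12.0% of all genes were higher. The 6 were Tpm1, Tpm3, Nebl, Tmod1, Lmod2 and Lmod3.

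Of 11 other fast-fibre genes, all had a mean below si Ctrl with si mH2A1.2 and 3 fell, namely Pvalb (parvalbumin, a calcium buffer, log2 fold change -2.89, adjusted p = 0.00631), Myh1 (a fast myosin heavy chain, -1.76, adjusted p = 0.0296) and Mybpc2 (fast myosin-binding protein C, -1.36, adjusted p = 0.0347). In this contrast 0.982% of all tested genes were called lower. With the replicate block 6 of the 11 fell, where the block called 1005 of all 19545 tested genes. With si mH2A1.1, where 11.1% of all tested genes were called, 3 rose and none fell without the block: Pvalb (1.63, adjusted p = 0.00748), Myh4 (1.57, adjusted p = 0.0142) and Myh1 (1.26, adjusted p = 0.0378). The block called 4 higher and 1 lower, Casq1 (-1.04, adjusted p = 0.00581), where it called 4065 of all tested genes. Over the whole list the median with si mH2A1.1 was 0.04, with 6 genes above 0 and 5 below. For comparison, the fast troponins Tnnc2, Tnni2 and Tnnt3 had 0.26, -0.54 and -0.23 with si mH2A1.1, none of which passed without the block. The difference between the lists was not tested.

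Of 9 slow-fibre genes 8 were tested, in contrasts that called 11.1% (si mH2A1.1) and 2.35% (si mH2A1.2) of all genes. With si mH2A1.1, 3 rose, Pln (log2 fold change 2.14, adjusted p = 0.00886), which encodes phospholamban and was at 1.52 CPM, Atp2a2 (2.15-fold, adjusted p = 0.00461), the slow and cardiac calcium pump that phospholamban restrains, and Mybpc1 (0.88, adjusted p = 0.0305), the slow myosin-binding protein C. Myh7, the slow myosin heavy chain, had a mean of 63.9 CPM against 187 in si Ctrl without passing in edgeR without the block (-1.55, adjusted p = 0.0543), though it passed in DESeq2 (0.0386) and limma-voom (0.0461). With the replicate block 4 of the 8 rose with si mH2A1.1. Myh7 (-1.64, adjusted p = 0.0213) and Casq2 (-0.47, adjusted p = 0.0354) fell. With si mH2A1.2 none of the 8 passed in the edgeR test, 3 had an unadjusted p below 0.05, and DESeq2 called 1 (Atp2a2) and limma-voom 0. The replicate block called 1, Casq2 (-0.56, adjusted p = 0.0456), and the largest value was that of Myl2 (1.52, adjusted p = 0.248). Between the knockdowns, 7 of the 8 slow-fibre genes were above 0, the sign of all 8 troponin genes, and 3 were called higher with si mH2A1.1. These were Atp2a2 (1.63, adjusted p = 0.0003), Pln (1.53, adjusted p = 0.014) and Mybpc1 (1.04, adjusted p = 0.00845). Myh7 had the opposite sign and was called lower (-1.72, adjusted p = 0.0238). Of all tested genes, 22.5% were called in that contrast and 12.0% were called higher. Of the 7 myotube markers, Myog fell with si mH2A1.1 (-0.66, adjusted p = 0.0204) and Des fell with si mH2A1.2 (-0.62, adjusted p = 0.0466). Each was the only call there, beside the shares of all genes given above. With si mH2A1.1 the replicate block called Myog and Myh3 (-0.52, adjusted p = 0.0342) lower. It called Ckm (0.47, adjusted p = 0.0211) and Des (0.45, adjusted p = 0.0135) higher. With si mH2A1.2 it called Ckm and Des lower. Between the knockdowns, Ckm (1.14, adjusted p = 0.00241) and Des (1.07, adjusted p = 0.000844) were higher with si mH2A1.1 and Myog was lower (-0.46, adjusted p = 0.0435).

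**Figure D5:**
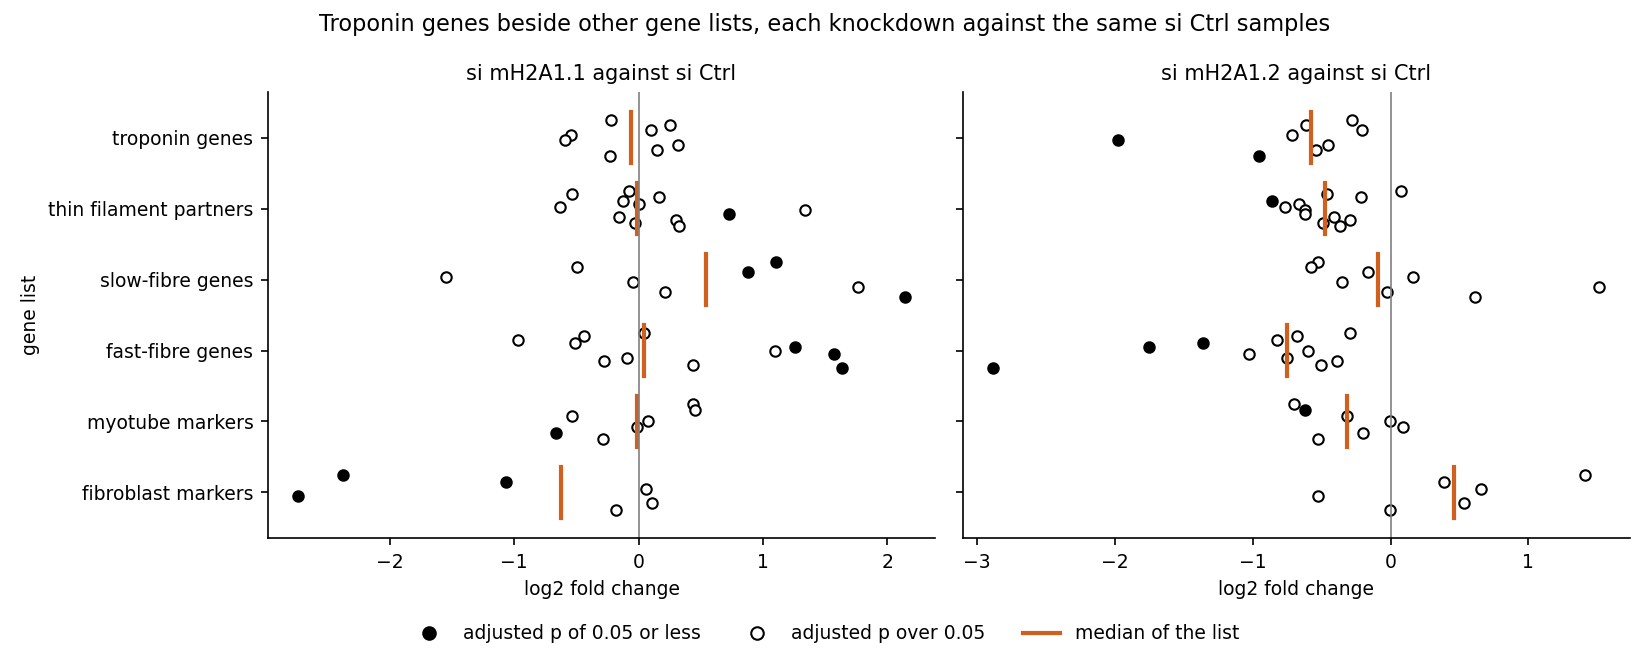
Log2 fold change (horizontal axis) of each tested gene of 6 lists (rows) with si mH2A1.1 (left) and si mH2A1.2 (right), both against the same si Ctrl samples, as filled points where the adjusted p was 0.05 or less and with the median as a bar. The troponin median is -0.06 on the left and -0.58 on the right, where all 8 troponin genes and all 11 fast-fibre genes lie below 0.

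Genes whose pattern was most like the troponins were found by Pearson correlation of log2 CPM over the 9 samples among 14373 genes of at least 1 CPM on average. For the mean of the fast troponins these were Bend4 (r = 0.986), Ksr1 (0.982), Mtdh (0.980), Myl1 (0.976) and Gm32591 (0.975), of which Myl1, a fast myosin light chain, is in the list of fast-fibre genes. For the mean of the slow troponins they included Ppp1r12b (0.977), Ssx2ip (0.967), Fam241a (0.965) and Ptgr2 (0.963). Ppp1r12b encodes a subunit of myosin phosphatase. The 9 points share their conditions and replicate numbers, so these values describe likeness in this experiment and no test was made of them.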

How the data were processed

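PolyA-selected mRNA of 9 C2C12 samples was sequenced by the authors as single reads of 50 bp. The deposited table holds estimated counts per gene, made by the authors with Salmon on GRCm38 (mm10 in the submitters' processing notes). The transcript annotation release and the use of strand are not given in the sources used here. The other deposited file gives these counts as a signal divided by 1 size factor per sample, equal to the factors of DESeq2, and was used only to check the first. Totals ranged from 36924252 to 42223108 counts. Intervals of fold changes come from the fit and include the spread between samples.

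Counts were rounded and tested in R 4.3.3 with edgeR 4.0.16 (quasi-likelihood test in its legacy form, TMM, filterByExpr, 19545 genes, Benjamini-Hochberg adjustment, all 9 samples in 1 model). A gene was called at an adjusted p of 0.05 or less. Alternatives were DESeq2 1.42.0, DESeq2's size factors, limma-voom (limma 3.58.1), edgeR's newer form, other filters, stricter cutoffs, only the 2 conditions compared, a replicate block, and leaving out each sample. The scripts were tested on simulated data before use. Count ratios used a pseudocount of 0.5 and two-sided exact permutation tests in Python 3.11.15.

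Deviations of same-numbered samples from their condition means correlated at 0.196 to 0.331 between si Ctrl and si mH2A1.2, above the 0.1 taken as pairing for every pair, and at 0.0841 to 0.0976 (si Ctrl and si mH2A1.1) and 0.0917 to 0.116 (both knockdowns). Samples of unlike replicate number correlated at -0.0739 to -0.0213 (si Ctrl and si mH2A1.1) and -0.0961 to -0.0122 (both knockdowns), below every same-numbered pair. The 0.1 therefore does not show that these comparisons are unpaired. The pairing comes from these correlations and the replicate numbers. The sample descriptions also run in sequence within each number, but no label states a pairing.

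The members, the lists and the tests were chosen with earlier results of these data known. Besides the 8 genes and H2afy, list members were named by the largest absolute change in each knockdown or to read a count, and likeness by the 5 highest correlations with the fast (Tnnc2, Tnni2, Tnnt3) and slow (Tnnc1, Tnni1, Tnnt1) troponins, of which 1 gene is not reported here. Ube2c and Dnaaf3 were named after the overlap of their exons was found.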

Additional observations from a re-analysis of the deposited data

How the results depend on the processing

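Of the alternative values of the 8 genes, 378 kept their direction and their side of the threshold, 19 lost the call, 6 gained it and 5 changed sign. The sign changes, all below the threshold, came from leaving out a sample. Tnnc1 between the knockdowns ranged from -0.056 to 0.24 on the log2 scale (lowest without si mH2A1.2 replicate 1, and -0.012 without replicate 2), Tnni1 from -0.065 to 0.40 with si mH2A1.1 (lowest without si Ctrl replicate 1) and from -0.44 to 0.088 with si mH2A1.2 (highest without si Ctrl replicate 3), and Tnnt2 from -0.040 to 0.40 with si mH2A1.1 (lowest without si Ctrl replicate 1).

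Leaving out a sample gave 0 calls among the 8 genes with si mH2A1.1, 0 to 2 with si mH2A1.2 (0 without si mH2A1.2 replicate 1) and 1 to 5 between the knockdowns (1 without si mH2A1.1 replicate 3 or si mH2A1.2 replicate 2). At the stricter cutoffs the counts were 0, 0 and 0. With the replicate block they were 2 with si mH2A1.1 (Tnni2 lower, adjusted p = 0.0102, and Tnnt1 higher, 0.0467), 4 with si mH2A1.2 and 5 between the knockdowns. Without a filter on low counts and with DESeq2, Tnni2 was also called with si mH2A1.2 (adjusted p = 0.0494 and 0.0232). Permuting only within a replicate number (the replicate block, 216 arrangements, smallest p 0.0278) gave adjusted exact p-values of 0.0556 for Tnnc1 to Tnnc2, 0.0556 for Tnni1 to Tnni2, 0.111 for Tnnt1 to Tnnt3 and 0.111 for Tnnt2 to Tnnt3. Leaving out a sample gave 0.0143 to 0.0429, 0.019 to 0.0429, 0.019 to 0.0429 and 0.0321 to 0.0964 in exact permutation tests, and the pseudocount changed no call.

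Over all genes, calls for the 3 contrasts in the same order (si mH2A1.1, si mH2A1.2, direct) numbered 2171, 460 and 4397, against 3354, 1096 and 4992 with DESeq2, 4065, 1005 and 5674 with the replicate block, 352, 35 and 1247 at the stricter cutoffs, and 605 to 2928, 74 to 544 and 2251 to 4616 with a sample left out. With 3 samples a group an exact permutation test of 2 conditions cannot go below p = 0.1.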
